A study of Mus musculus with 24 samples.

Results

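A group of 10 genes of lymphocytes and natural killer (NK) cells was followed in the mouse heart early after pressure overload. They are Cd79a, Cd79b, Cd247, Klra9, Prdm1, Bcl11b, Cd3e, Nkg7, Gzma and Cd2, 10 of the 40840 gene symbols counted. They were listed by symbol with results of these libraries known: Cd79a, Cd247, Klra9, Prdm1 and Bcl11b were chosen by their log2 changes between constricted and sham-operated hearts, and for the others no measured value is recorded as the reason. Those changes, and the difference between them, are therefore given as a description and carry no p-value.

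The heart apex of 24 C57/Bl6J mice of wild-type genotype was sequenced, in 4 groups of 6. In transverse aortic constriction (TAC) a suture tied around a blunt 25-gauge needle narrows the aortic arch, so that the left ventricle pumps against a raised pressure. The groups were hypoxia with TAC, hypoxia with sham surgery, normoxia with TAC and normoxia with sham surgery, and all mice were killed on day 3. The oxygen level, the length of hypoxia, and the age and sex of the mice are not given in the sources used here. Cells were not sorted, so a low value can mean fewer cells of a type or less RNA per cell, which cannot be told apart.

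The genes cover 3 lineages. Cd79a and Cd79b encode Ig-alpha and Ig-beta, the signalling pair of the B cell receptor, and Prdm1 encodes Blimp-1, the repressor that drives plasma cell differentiation and is also used in T cells and outside the lymphocytes. Cd247 encodes the zeta chain of the T cell receptor complex, which NK cells also use. Cd3e encodes the epsilon chain of that complex, Cd2 an adhesion molecule of T and NK cells, and Bcl11b a transcription factor of T cell commitment. Klra9 belongs to the Ly49 receptors, by which mouse NK cells read MHC class I. Nkg7 encodes a granule protein and Gzma the protease granzyme A of cytotoxic cells. The healthy heart holds few lymphocytes, and B cells, T cells and NK cells are among the leukocytes found in hearts under pressure overload.

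Total counts ran from 10136915 to 15058159 per library. Of all genes, 15027 passed the filter on low counts, and they held 99.86% of the counts. Of the 10 genes, 6 passed (Cd79a, Cd79b, Cd247, Klra9, Prdm1 and Bcl11b), and Cd3e, Nkg7, Gzma and Cd2 did not. A gene near the filter passes more easily when it is high in at least 6 libraries, so the 6 do not stand for all 10. Levels are CPM, counts relative to the size of the library, scaled by the TMM method for differences in library composition. Values after ± are standard deviations for CPM and standard errors for log2 changes.

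A pair of TAC libraries stood apart from the rest of their groups by Timp1. Timp1, an early injury gene, was at 3.09 CPM in hypoxia TAC mouse 4 and at 3.13 CPM in normoxia TAC mouse 1, where the other TAC mice had at least 9.11 CPM and no sham mouse exceeded 4.18 CPM. That highest sham value was of a hypoxia mouse. Normoxia sham mice reached 2.56 CPM, below normoxia TAC mouse 1. For Nppa, Nppb and Myh7 normoxia TAC mouse 1 was lowest of its group but above every normoxia sham mouse. It had 422, 174 and 474 CPM, where normoxia sham mice reached 271, 54.1 and 431 CPM. Hypoxia TAC mouse 4 had 301, 56.9 and 197 CPM. Hypoxia TAC mouse 5 was not set apart by Timp1, but its Nppb (19.1 CPM) was below every sham mouse and its Myh7 (283 CPM) was inside the sham range. Results that rest on the 2 mice set apart by Timp1 are given with and without them.

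The label of the group was checked against lineage genes, by level per kilobase of exon over all 24 libraries. For B cells Cd79b stood at 0.675 and Cd79a at 0.508 CPM per kb, where the median of the 20 listed B cell genes was 0.199 CPM per kb. The 20 genes disagreed among themselves, from 0.0241 (Pax5) to 4.18 CPM per kb (Ighm), with Ms4a1 at 0.0825 and Cd22 at 0.0745. The T cell genes disagreed as well. Cd247 stood at 0.323 CPM per kb, above the median of 0.106 of the 26 listed T cell genes. The CD3 chains with which its product assembles stood at 0.0573 (Cd3d), 0.0493 (Cd3e) and 0.0426 CPM per kb (Cd3g). Bcl11b stood at 0.148, Cd2 at 0.230 and Prdm1 at 0.369 CPM per kb. For NK cells the data went against the label. Klra9 stood at 2.41 CPM per kb, the highest of the 10 genes, while the median of 22 NK and cytotoxic genes was 0.0229 CPM per kb, none of them passed the filter, and the other Ly49 genes listed did not exceed 0.0235 CPM per kb. The NK receptor gene Ncr1 stood at 0.0463 CPM per kb. Klra9 is therefore called by its name below and not as a measure of NK cells. Cd247, Bcl11b and Prdm1 are likewise not read as measures of 1 cell type. Ly49 genes are closely similar copies of each other, and how reads that fit several copies were counted is not given in the sources used here, so the assignment of reads to Klra9 is uncertain.

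**Figure D1:**
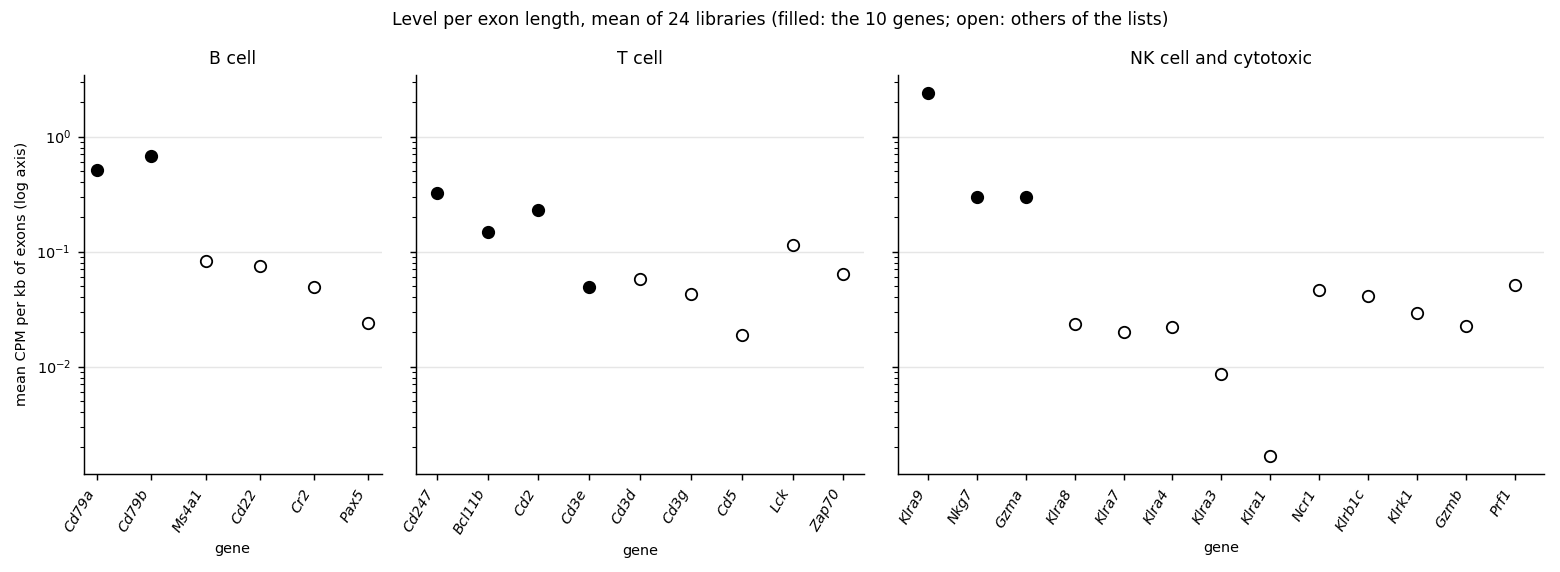
Mean level of each gene over the 24 libraries in CPM per kilobase of exons, on a log axis, for B cell, T cell, and NK and cytotoxic genes. Filled points are genes of the group and open points other genes of the lists; Klra9 stands at 2.41 CPM per kb, above the other Ly49 genes shown.

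The first question was how oxygen shifts these genes at the same surgery. After TAC, Cd79a and Cd247 were lower in hypoxia than in normoxia, and no member was higher, by edgeR's quasi-likelihood test with Benjamini-Hochberg adjusted p under 0.05 over all 15027 genes. These 2 of 6 tested members stand beside 11.1% of all tested genes called in the same comparison, 6.41% lower and 4.66% higher. After sham surgery no member of 6 passed, where 0.166% of all tested genes did, 0.0865% higher and 0.0799% lower in hypoxia. DESeq2 also called 0 members there, and 1 member, Prdm1, had an unadjusted p under 0.05. These comparisons share their mice with the comparisons that chose the members, so they are not independent of the choice. They also rest on a spread estimated from all 4 groups: fitted on the 12 TAC libraries alone, no gene of 14267 passed (2364 had an unadjusted p under 0.05), and Cd79a and Cd247 did not pass that fit's filter.

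The comparisons that chose the members give the frame. With TAC in hypoxia all 6 tested members had a log2 change below 0 (median -1.99), beside a median of 0.0107 for all tested genes. With TAC in normoxia 4 of 6 did (median -0.201), beside 0.00954 for all tested genes. Of all tested genes, 11.1% were called with TAC in hypoxia, 4.68% lower and 6.46% higher. In normoxia 27.4% were called, 10.6% lower and 16.8% higher. Calls of members are not counted here, since these comparisons chose members, and nothing is read from their medians.

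**Figure D2:**
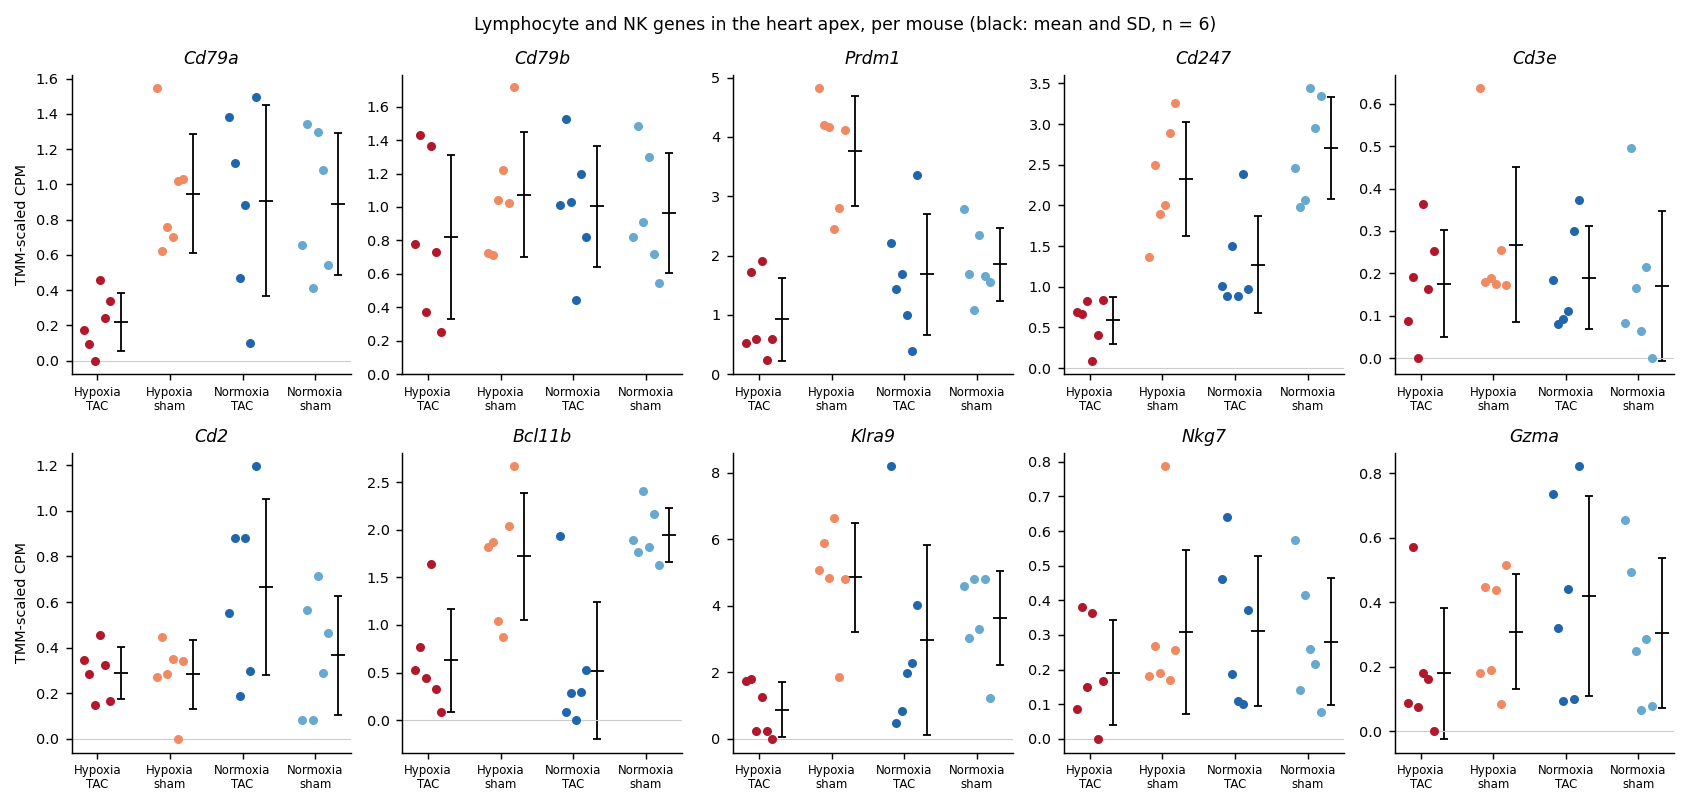
TMM-scaled CPM of the 10 genes in each of 24 mice, with hypoxia TAC, hypoxia sham, normoxia TAC and normoxia sham from left to right; black marks are the mean and SD of 6 mice. Cd79a, Cd79b, Cd247, Klra9, Prdm1, Nkg7 and Gzma are lowest on average in hypoxia TAC mice, while Bcl11b, Cd3e and Cd2 are not. The means of Cd3e, Cd2, Nkg7 and Gzma stay between 0.171 and 0.666 CPM.

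Both B cell receptor genes had their lowest mean in hypoxia TAC mice, 0.217 CPM for Cd79a and 0.822 CPM for Cd79b. Cd79a ran from 0 to 0.455 CPM in hypoxia TAC mice (median 0.209), from 0.625 to 1.55 in hypoxia sham mice (median 0.890), from 0.0997 to 1.49 in normoxia TAC mice (median 1.002) and from 0.414 to 1.34 in normoxia sham mice (median 0.868). Every hypoxia TAC mouse lay below every hypoxia sham mouse and below the median of the normoxia TAC mice, but 4 of 6 were inside the normoxia TAC range. Summed over 6 mice, Cd79a had 15 reads in hypoxia TAC, 64 in hypoxia sham, 63 in normoxia TAC and 74 in normoxia sham mice. After TAC it was lower in hypoxia, at 0.217 ± 0.164 CPM, against 0.908 ± 0.541 CPM in normoxia (log2 change -2.06 ± 0.53, edgeR adjusted p = 0.0173). The call held in all 24 fits that left out 1 mouse (adjusted p 0.00455 to 0.0405) and without the 2 mice that stood apart (-2.24 ± 0.60, adjusted p = 0.0182). DESeq2 gave this gene no adjusted p, and an exact two-sided permutation of the CPM gave p = 0.0195, unadjusted, in a family of 20 such tests. After sham surgery the log2 change between hypoxia and normoxia was 0.07 ± 0.43 (95% interval -0.83 to 0.97, edgeR adjusted p = 0.991). As a description, the log2 change with TAC was -2.09 ± 0.53 in hypoxia and 0.04 ± 0.43 in normoxia.

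Cd79b passed in neither oxygen comparison. It ran from 0.252 to 1.43 CPM in hypoxia TAC mice (median 0.757), from 0.714 to 1.72 in hypoxia sham mice (median 1.03), from 0.441 to 1.52 in normoxia TAC mice (median 1.02) and from 0.544 to 1.48 in normoxia sham mice (median 0.866). All 4 ranges overlapped. The hypoxia minus normoxia log2 change was -0.32 ± 0.37 after TAC (95% interval -1.09 to 0.45, edgeR adjusted p = 0.614) and 0.15 ± 0.35 after sham surgery (adjusted p = 0.966). The log2 change with TAC was -0.41 ± 0.37 in hypoxia and 0.06 ± 0.36 in normoxia, again as a description. Because both products are needed for the receptor, the share of Cd79a in the summed reads of the pair was computed. It was 21.1% of 71 reads in hypoxia TAC mice (95% exact binomial interval 12.3 to 32.4%), 46.7% of 137 in hypoxia sham mice (38.2 to 55.4%), 48.1% of 131 in normoxia TAC mice (39.3 to 57.0%) and 48.4% of 153 in normoxia sham mice (40.2 to 56.6%). These intervals cover counting error only. Cd79a was chosen by its log2 changes with TAC, so its low share in hypoxia TAC mice is not independent of that choice. The same holds for the comparison per mouse. Taken per mouse, the share after TAC ran from 0 to 57.1% in hypoxia (mean 21.9%) and from 7.69 to 66.7% in normoxia (mean 45.04%), a difference of -23.1 percentage points that did not pass (exact two-sided permutation p = 0.0974, n = 6 each, 2 comparisons).

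Prdm1 was highest in hypoxia sham mice. It ran from 0.244 to 1.91 CPM in hypoxia TAC mice (median 0.592), from 2.45 to 4.82 in hypoxia sham mice (median 4.15), from 0.399 to 3.36 in normoxia TAC mice (median 1.56) and from 1.08 to 2.79 in normoxia sham mice (median 1.68). The hypoxia TAC and hypoxia sham ranges did not overlap, and 5 of 6 hypoxia sham mice lay above every normoxia sham mouse. After sham surgery Prdm1 averaged 3.76 ± 0.92 CPM in hypoxia and 1.85 ± 0.61 CPM in normoxia, a log2 change of 1.01 ± 0.38 that did not pass over the 24 libraries (edgeR adjusted p = 0.452). Fitted on the 12 sham libraries alone, the same change was 1.01 ± 0.22 with an edgeR adjusted p of 0.00525, and the exact two-sided permutation gave an unadjusted p = 0.00433. After TAC the log2 change was -0.90 ± 0.42 (95% interval -1.78 to -0.01, adjusted p = 0.170). As a description, the log2 change with TAC was -2.03 ± 0.41 in hypoxia and -0.12 ± 0.39 in normoxia.

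Cd247 was lower in both TAC groups than in their sham groups. It ran from 0.0910 to 0.840 CPM in hypoxia TAC mice (median 0.681), from 1.36 to 3.26 in hypoxia sham mice (median 2.25), from 0.882 to 2.39 in normoxia TAC mice (median 0.992) and from 1.98 to 3.44 in normoxia sham mice (median 2.71). In TMM-scaled CPM all 6 hypoxia TAC mice lay below all 6 normoxia TAC mice, by a narrow gap (0.840 against 0.882 CPM). This separation rests on the scaling. Normoxia TAC mouse 4, with a TMM factor of 0.784, had 8 reads of 11579482. Hypoxia TAC mouse 1 had 8 reads of 11270007, and hypoxia TAC mice 3 and 6 had 11 and 10 reads. By plain library totals the ranges therefore overlap. After TAC the mean was 0.587 ± 0.288 CPM in hypoxia and 1.27 ± 0.59 CPM in normoxia (log2 change -1.08 ± 0.35, edgeR adjusted p = 0.0463). The exact two-sided permutation of the TMM-scaled CPM gave p = 0.00216, the smallest that 6 against 6 mice allow, unadjusted. It was not run on plain library totals for this gene. The edgeR call was near its threshold and was lost in 16 of 24 fits that left out 1 mouse (adjusted p up to 0.109): hypoxia TAC 1, 4 or 5, normoxia TAC 3, 4 or 5, or any of 10 of the 12 sham mice. Without the 2 mice that stood apart the change was -0.92 ± 0.33 (adjusted p = 0.0620). After sham surgery it was -0.22 ± 0.29 (95% interval -0.82 to 0.38, adjusted p = 0.917). As a description, the log2 change with TAC was -1.96 ± 0.33 in hypoxia and -1.09 ± 0.31 in normoxia.

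Bcl11b was low in both TAC groups, and no oxygen difference passed. It ran from 0.0840 to 1.64 CPM in hypoxia TAC mice (median 0.484), from 0.874 to 2.66 in hypoxia sham mice (median 1.85), from 0 to 1.93 in normoxia TAC mice (median 0.290) and from 1.63 to 2.40 in normoxia sham mice (median 1.85). The highest mouse of each TAC group was the mouse that stood apart by Timp1, hypoxia TAC 4 at 1.64 CPM and normoxia TAC 1 at 1.93 CPM. The log2 change with TAC, as a description, was -1.46 ± 0.53 in hypoxia and -1.87 ± 0.54 in normoxia, and -1.999 ± 0.42 and -2.92 ± 0.45 without those 2 mice. Hypoxia minus normoxia was 0.24 ± 0.60 after TAC (95% interval -1.02 to 1.49, edgeR adjusted p = 0.838) and -0.17 ± 0.48 after sham surgery (adjusted p = 0.972). Without normoxia TAC mouse 1 the value after TAC was 1.29 ± 0.58 (adjusted p = 0.133).

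Reads of Cd3e and Cd2 were near the limit of the counts. Cd3e had 12 reads summed over 6 mice in hypoxia TAC (exact Poisson 95% interval 6.201 to 20.96), 18 in hypoxia sham (10.7 to 28.4), 13 in normoxia TAC (6.92 to 22.2) and 14 in normoxia sham mice (7.65 to 23.5). Its mean stayed between 0.171 and 0.268 CPM in all groups. Cd2 had 20 reads in hypoxia TAC, 19 in hypoxia sham, 46 in normoxia TAC and 31 in normoxia sham mice. After TAC all 6 hypoxia mice lay below the median of the normoxia mice for Cd2, with means of 0.289 ± 0.115 CPM in hypoxia and 0.666 ± 0.387 CPM in normoxia (exact two-sided permutation p = 0.0541, n = 6 each). Of 8 such tests on the 4 genes with low counts, none had an unadjusted p under 0.05. Leaving out 1 mouse took a test under 0.05 in 4 cases (exact permutation, unadjusted): Cd2 after TAC without normoxia TAC mouse 3 (p = 0.0173) or 5 (p = 0.0346), Gzma after TAC without hypoxia TAC mouse 2 (p = 0.0433) and Cd3e after sham surgery without normoxia sham mouse 2 (p = 0.0476). With no filter on low counts, Cd2 after TAC had a log2 change of -1.21 ± 0.54 (edgeR adjusted p = 0.223).

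Klra9 had the widest spread among normoxia TAC mice. It ran from 0 to 1.81 CPM in hypoxia TAC mice (median 0.759), from 1.87 to 6.64 in hypoxia sham mice (median 4.96), from 0.481 to 8.20 in normoxia TAC mice (median 2.14) and from 1.24 to 4.82 in normoxia sham mice (median 3.95). The hypoxia TAC range ended just below the lowest hypoxia sham mouse, and the highest value of all, 8.20 CPM, was that of normoxia TAC mouse 1. After TAC the mean was 0.882 ± 0.821 CPM in hypoxia and 2.97 ± 2.85 CPM in normoxia, a log2 change of -1.78 ± 0.63 that did not pass (edgeR adjusted p = 0.0659). DESeq2 called it (adjusted p = 0.0257), and without normoxia TAC mouse 1 it was -1.16 ± 0.60 (edgeR adjusted p = 0.198). After sham surgery the change was 0.42 ± 0.54 (95% interval -0.70 to 1.54, adjusted p = 0.912). As a description, the log2 change with TAC was -2.48 ± 0.62 in hypoxia and -0.29 ± 0.55 in normoxia, the last of which was -0.90 ± 0.54 without normoxia TAC mouse 1.

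The granule genes had few reads. Nkg7 had 13 reads in hypoxia TAC, 21 in hypoxia sham, 22 in normoxia TAC and 22 in normoxia sham mice. Gzma had 12, 21, 29 and 24 reads in the same groups. After TAC the Gzma mean was 0.180 ± 0.203 CPM in hypoxia and 0.419 ± 0.310 CPM in normoxia (exact two-sided permutation p = 0.136, n = 6 each), and that of Nkg7 was 0.192 ± 0.152 CPM in hypoxia and 0.312 ± 0.217 CPM in normoxia (p = 0.273). Neither passed after sham surgery (p = 0.976 for Gzma and 0.814 for Nkg7, same exact permutation test).

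**Figure D3:**
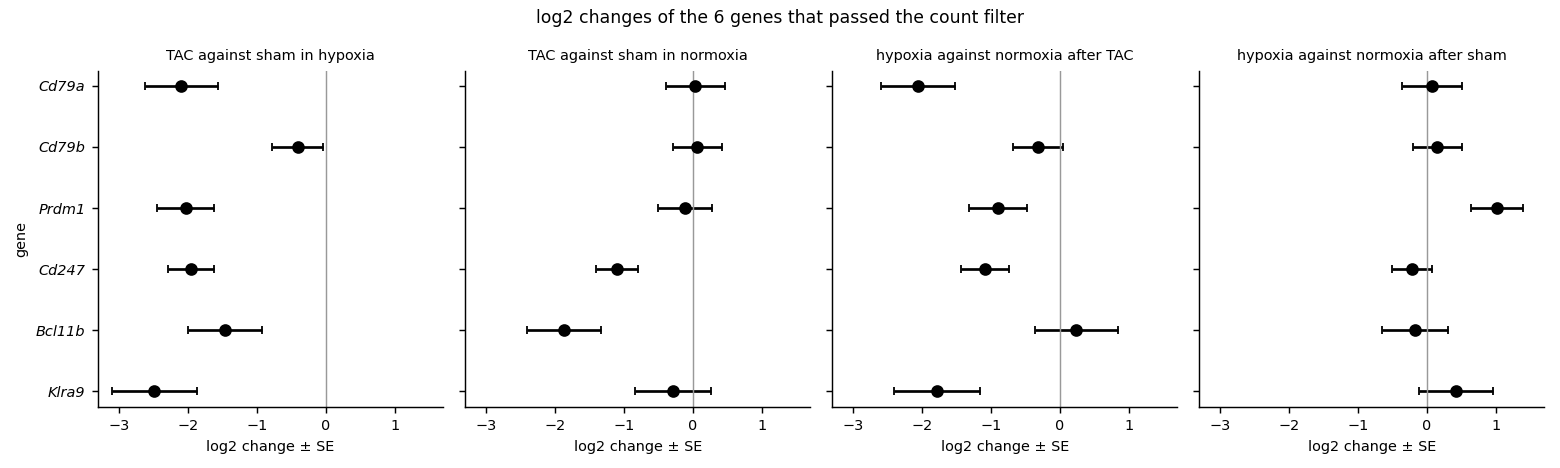
log2 changes with standard errors of the 6 genes that passed the count filter, in 4 comparisons that share their mice. Cd79a lies at -2.06 and Cd247 at -1.08 for hypoxia against normoxia after TAC, while Bcl11b lies on the other side of 0 at 0.24; the panels for TAC against sham show values that chose the members.

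The difference between both TAC responses (hypoxia minus normoxia) is described only. It was -2.20 ± 0.83 for Klra9, -2.13 ± 0.69 for Cd79a, -1.91 ± 0.57 for Prdm1, -0.86 ± 0.45 for Cd247, -0.47 ± 0.51 for Cd79b and 0.41 ± 0.77 for Bcl11b, on the log2 scale.

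The promoters of the 4 genes with the largest falls with TAC in hypoxia are shown (Klra9, Cd79a, Prdm1 and Cd247). They run from 250 bases before to 50 bases after the gene start, from RefSeq, build GRCm38.p6, 5′ to 3′ on the strand of the gene. Cd79a lies at chr7:24897247-24897546 (plus strand), Cd247 at chr1:165788431-165788730 (plus strand), Prdm1 at chr10:44458699-44458998 (minus strand) and Klra9 at chr6:130193063-130193362 (minus strand). Capitals mark AGGAAG or its reverse complement CTTCCT, the core letters bound by ETS factors such as PU.1, which are used throughout the blood lineages.
Cd79a: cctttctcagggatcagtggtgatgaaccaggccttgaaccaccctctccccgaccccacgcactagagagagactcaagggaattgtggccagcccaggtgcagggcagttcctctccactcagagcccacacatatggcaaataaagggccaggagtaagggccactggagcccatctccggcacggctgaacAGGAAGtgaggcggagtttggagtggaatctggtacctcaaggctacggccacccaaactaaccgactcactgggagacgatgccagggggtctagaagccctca
Cd247: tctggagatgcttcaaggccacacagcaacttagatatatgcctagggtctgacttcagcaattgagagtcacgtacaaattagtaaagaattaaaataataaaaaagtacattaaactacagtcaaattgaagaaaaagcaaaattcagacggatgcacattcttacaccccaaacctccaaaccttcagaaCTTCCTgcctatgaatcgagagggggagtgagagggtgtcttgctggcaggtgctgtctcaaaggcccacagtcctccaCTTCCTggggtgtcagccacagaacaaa
Prdm1: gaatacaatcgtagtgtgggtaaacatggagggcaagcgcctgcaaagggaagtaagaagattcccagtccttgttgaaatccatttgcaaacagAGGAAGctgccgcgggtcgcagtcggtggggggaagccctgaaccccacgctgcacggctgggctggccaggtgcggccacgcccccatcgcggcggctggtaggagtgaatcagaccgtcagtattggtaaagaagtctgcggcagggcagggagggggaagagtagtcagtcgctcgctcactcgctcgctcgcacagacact
Klra9: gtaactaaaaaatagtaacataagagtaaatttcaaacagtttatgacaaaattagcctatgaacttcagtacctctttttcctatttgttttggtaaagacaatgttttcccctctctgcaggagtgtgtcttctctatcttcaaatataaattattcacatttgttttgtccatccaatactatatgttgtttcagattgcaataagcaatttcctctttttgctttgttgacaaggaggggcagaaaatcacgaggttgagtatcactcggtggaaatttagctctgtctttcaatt
Promoters were at hand for 8 of the 10 genes (not for Cd79b and Cd2). The ETS letters were in 6 of these 8 (Cd79a, Cd247, Prdm1, Bcl11b, Cd3e and Nkg7) and in 35.4% of 32851 promoters of the same length. The RUNX letters TGTGGT (or ACCACA) were in 2, Nkg7 and Gzma, and in 16.8% of all. Both were searched on both strands, and in Nkg7, which holds both, they do not overlap. A match describes the sequence and does not show binding.

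Other lymphocyte genes were read from lists of 20 B cell, 7 plasma cell, 26 T cell, and 22 NK and cytotoxic genes that do not hold the 10 genes. Of these 75, 20 passed the filter: 9 B cell, 4 plasma cell, 7 T cell and no NK genes. After TAC, hypoxia against normoxia, 6.41% of all tested genes were lower and 4.66% higher, and 1 of the 20 was lower and none higher. It was Igkc, the kappa light chain constant region, at 0.819 ± 0.493 CPM in hypoxia and 2.42 ± 1.78 CPM in normoxia (log2 change -1.59 ± 0.42, edgeR adjusted p = 0.0185, 0.0596 without normoxia TAC mouse 2). Of the 9 tested B cell genes, 8 had a log2 change below 0 and the median was -0.755, while the median of all tested genes was -0.0201. The median was -0.17 for the 4 plasma cell genes and -0.306 for the 7 T cell genes. After sham surgery none of the 20 passed by edgeR or had an unadjusted p under 0.05, and DESeq2 called none. The median of the B cell genes there was 0.0745.

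With TAC in hypoxia, where 4.68% of all tested genes were lower and 6.46% higher, 2 of the 20 were lower and none was higher. They were Ighm, the mu heavy chain, at 3.87 ± 2.97 CPM in TAC and 10.96 ± 2.51 CPM in sham mice (log2 change -1.52 ± 0.39, edgeR adjusted p = 0.0170), and Bank1, a B cell scaffold protein, at 0.858 ± 0.318 CPM in TAC and 2.11 ± 0.33 CPM in sham mice (-1.31 ± 0.36, adjusted p = 0.0238). Bank1 was lost without hypoxia TAC mouse 3 or 5 (adjusted p up to 0.0701). The median of the 9 B cell genes was -1.07, beside 0.0107 for all tested genes. With TAC in normoxia, 3 of the 20 were higher and none was lower, where 16.8% of all tested genes were higher and 10.6% lower. Beside them 9 of 10 myeloid markers were higher. The 3 called list genes were Sdc1, syndecan-1 (1.39 ± 0.42, edgeR adjusted p = 0.0179, 0.109 without normoxia TAC mouse 2), and Tnfrsf13b, the TACI receptor (1.29 ± 0.44, adjusted p = 0.0323, lost in 7 of 24 fits that left out 1 mouse), both of the plasma cell list, and Tcf7 of the T cell list (0.35 ± 0.11, adjusted p = 0.0240, up to 0.0804 without normoxia sham mouse 2 or normoxia TAC mouse 4). The other tested plasma cell genes did not pass and differed in direction, Xbp1 at 0.67 ± 0.27 and Mzb1 at -0.90 ± 0.38. Tcf7 stood at 14.1 CPM per kb, where the median of the T cell list was 0.106, so it is not read as a measure of T cells. The median of the B cell genes was -0.274. None of these calls is independent of earlier results of the same mice.

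**Figure D4:**
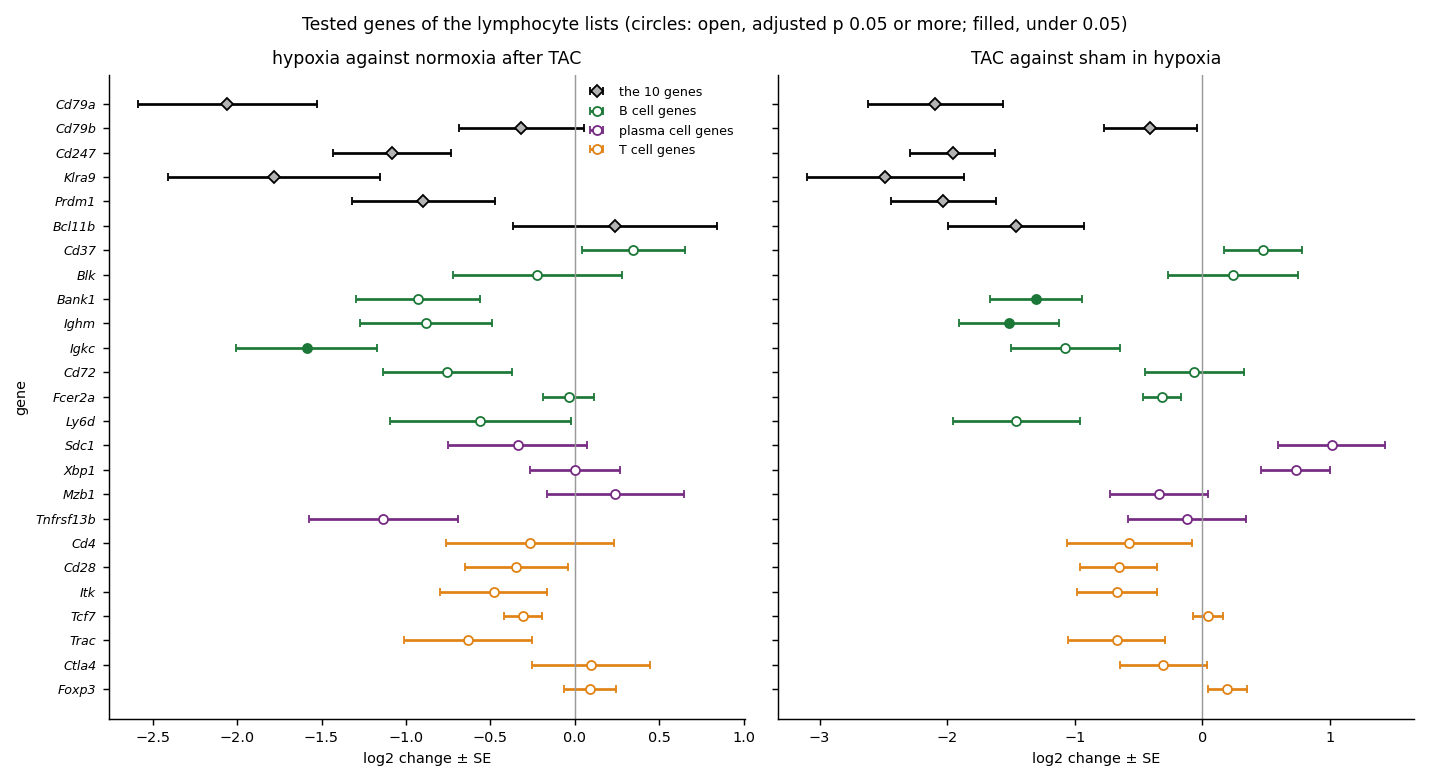
log2 changes with standard errors of the 6 tested members (grey diamonds) and of tested genes of the B cell, plasma cell and T cell lists (circles, filled at an adjusted p under 0.05), for hypoxia against normoxia after TAC and for TAC against sham in hypoxia. Igkc, at -1.59, is the filled circle in the first panel.

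Genes of lymphocyte recruitment and survival moved in both directions. Of 15 listed, 10 were tested, and after TAC 1 was higher and 1 lower in hypoxia, where 4.66% of all tested genes were higher and 6.41% lower. Cxcl12, the chemokine that attracts CXCR4-bearing lymphocytes, was at 393 ± 110 CPM in hypoxia and 260 ± 76 CPM in normoxia (log2 change 0.59 ± 0.18, edgeR adjusted p = 0.0320, up to 0.0922 without hypoxia TAC mouse 1 or 5). With TAC in hypoxia S1pr1, the receptor by which lymphocytes leave lymphoid tissue and which endothelium also carries, was higher (0.82 ± 0.20, adjusted p = 0.0133). With TAC in normoxia 3 of the 10 were higher and 1 was lower, where 16.8% of all tested genes were higher and 10.6% lower. Among them Cxcl16, a chemokine that is also a scavenger receptor, was higher by 0.99 ± 0.25 (edgeR adjusted p = 0.00699), and Cxcr6, its receptor, by 2.26 ± 0.83 (adjusted p = 0.0462, lost in 16 of 24 fits that left out 1 mouse, up to 0.296). Il15, the cytokine on which NK cells depend, fell by 0.84 ± 0.28 on the log2 scale (edgeR adjusted p = 0.0309), and this was lost without normoxia sham mouse 3 or 6 (adjusted p up to 0.0658).

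Markers of other cells moved along with these comparisons. Of all tested genes, 4.66% were higher and 6.41% lower in hypoxia after TAC. With TAC the shares were 16.8% higher and 10.6% lower in normoxia, and 6.46% higher and 4.68% lower in hypoxia. After TAC, 3 of 10 myeloid markers were lower in hypoxia (Ptprc, Ccr2 and Lyz2, with all 10 log2 changes below 0), and their summed level ran from 170 to 516 CPM in hypoxia and from 252 to 784 CPM in normoxia. Of 7 endothelial markers 4 were higher (Tie1, Vwf, Cdh5 and Pecam1), with sums from 595 to 850 CPM in hypoxia and from 555 to 649 CPM in normoxia. Of 10 glucocorticoid response genes 4 were higher (Per1, Tsc22d3, Dusp1 and Sgk1) and 1 lower (Pdk4). Tsc22d3, which encodes GILZ, was at 332 ± 104 CPM in hypoxia and 161 ± 77 CPM in normoxia (log2 change 1.05 ± 0.22, edgeR adjusted p = 0.00578). The glucocorticoid list summed to between 1039 and 2665 CPM in hypoxia TAC mice and between 864 and 2580 CPM in normoxia TAC mice. In fits that left out 1 mouse, the call of Lyz2 was lost in 13 of 24, that of Pecam1 in 7 and that of Sgk1 in 6. With TAC in normoxia 9 of 10 myeloid markers were higher, among them S100a9 (4.99 ± 0.75, edgeR adjusted p = 0.000161), a neutrophil and monocyte protein, and Ptprc (1.30 ± 0.27, adjusted p = 0.00180), the common leukocyte antigen. The myeloid sums ran from 252 to 784 CPM in TAC and from 162 to 211 CPM in sham mice. In the same comparison 3 of 7 endothelial markers were lower (Tie1, Egfl7 and Kdr), with sums from 555 to 649 CPM in TAC and from 729 to 828 CPM in sham mice. With TAC in hypoxia 8 of the 10 glucocorticoid response genes and 2 of the 10 myeloid markers were higher, and 2 of 7 endothelial markers were lower. Of the myeloid calls, S100a8 was lost in 17 of 24 fits that left out 1 mouse and Itgam in 7. The glucocorticoid sums ran from 1039 to 2665 CPM in TAC and from 786 to 1054 CPM in sham mice. Of 6 erythroid markers Slc4a1, the band 3 anion exchanger of red cells, was higher in hypoxia after TAC (3.54 ± 0.73, edgeR adjusted p = 0.00598) and with TAC in hypoxia (3.73 ± 0.74, adjusted p = 0.00531), and all 6 log2 changes were above 0 in both comparisons. The erythroid markers after TAC summed to between 1388 and 5502 CPM in hypoxia and between 434 and 4146 CPM in normoxia. The cardiomyocyte markers summed to between 42880 and 64500 CPM in hypoxia and between 25280 and 56350 CPM in normoxia, and 6 thymocyte genes to between 4.82 and 8.99 CPM in hypoxia and between 4.71 and 9.70 CPM in normoxia. The B cell list summed to between 16.1 and 42.4 CPM in hypoxia and between 17.4 and 50.2 CPM in normoxia after TAC, and the NK and cytotoxic list to between 0.637 and 3.72 CPM and between 0.399 and 6.74 CPM in the same groups. No gene of these lists was at 0 in all 24 libraries. The part of these shifts in the members' values was not tested.

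Across the 24 libraries, the log2 CPM of each tested member was set against all other tested genes, as a description. The libraries share their groups, so the correlation of deviations from group means is given beside each. Cd79b was closest to Igkc (Pearson r = 0.734, Spearman rho = 0.650, 0.760 within groups), the first of 15026 genes. Cd79a was closest to Tent4b (r = 0.795, rho = 0.632, 0.595 within groups). Prdm1 was closest to Plxnd1, a semaphorin receptor (r = 0.892, rho = 0.848, 0.790 within groups), and to Aplnr, the apelin receptor (r = 0.873), with Ighm at rank 27 (r = 0.807). Vti1a was among the genes closest to Cd247 (r = 0.746). Klra9 was closest to Larp4b and Gm6416 (0.893 and 0.873), and Bcl11b to Celsr3 and Cpn2 (0.933 and 0.927). Among 25 other lymphocyte genes, the closest stood at rank 504 for Cd247 (Bank1), 205 for Klra9 (Bank1) and 367 for Bcl11b (Fcer2a). Cd79b was the only tested member whose closest gene was a gene of the lymphocyte lists.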

How the data were processed

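RNA of the heart apex of 24 mice was sequenced, 1 library per mouse. The deposited table holds raw counts per gene symbol, with no normalization. The submitters' processing notes name build GRCm39, featureCounts (Subread 2.0.0), bcl2fastq 2.20.0.422, and STAR 2.7.3a; settings, annotation release and strand are not given in the sources used here, so overlapping, antisense and near-identical genes are uncertain. Columns were joined to mice through the sample descriptions.

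Genes were filtered with filterByExpr of edgeR 4.0.16 (minimum count 10, minimum total 15) in R 4.3.3, scaled by TMM, and fitted with 1 mean per group in a robust quasi-likelihood model (20 residual degrees of freedom, biological coefficient of variation 0.241). A call is a Benjamini-Hochberg adjusted p under 0.05 over all tested genes. The steps were tested on simulated counts. CPM of single members were compared by exact two-sided permutation over mice (scipy 1.17.1, 924 splits), not adjusted. Correlations used log2 CPM with a prior count of 2. Exon lengths came from GENCODE and promoters from RefSeq, both of build GRCm38, so no other coordinates are printed.

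Alternatives were RLE scaling, no filter, DESeq2 1.42.0 (Wald test), fits of the 12 libraries of a contrast, replicate number as a block, and each mouse left out. Leaving out normoxia TAC 1 and hypoxia TAC 4 together, and the permutations of all members, were added after seeing the data. The members and lists were chosen with earlier results of these data known. Named genes were the 10 members, called genes of each lymphocyte list (the 3 smallest p), the genes of other lists needed to give their level, and the 2 genes most correlated with each tested member. Permutation and interval results on few reads cover counting error or spread between mice only, since reads carry no molecular identifiers. Some genes that this rule names are not reported here.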

Additional observations from a re-analysis of the deposited data

Results flagged for a closer look

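In 4 of 40 groups of 6 values (10 genes in 4 groups), 1 mouse lay far from the other 5 by Dixon's test at the 95% level, which chance gives in about 1 in 20 groups. For Bcl11b it was normoxia TAC mouse 1 at 1.93 CPM, and this Bcl11b value reached the level of sham mice. The Timp1 of that mouse (3.13 CPM) was above every normoxia sham mouse (up to 2.56 CPM) but below the highest hypoxia sham mouse (4.18 CPM). For Cd3e it was hypoxia sham mouse 1 at 0.637 CPM, for Nkg7 hypoxia sham mouse 4 at 0.786 CPM and for Gzma hypoxia TAC mouse 2 at 0.572 CPM.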

How the results depend on the processing

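RLE scaling kept every count of members called in the oxygen comparisons. Leaving out 1 mouse gave 1 to 3 members called for hypoxia against normoxia after TAC and 0 after sham surgery. List genes called ran from 1 to 5 for TAC in hypoxia and from 1 to 6 for TAC in normoxia. Between oxygen conditions they ran from 1 to 2 after TAC and were 0 after sham surgery. Of the low-count members 0 to 1 passed. The median log2 difference between both TAC responses over the 6 tested members was -1.39, and it ran from -1.48 to -1.23 in the same fits. List counts moved by over 1.5 times without hypoxia TAC 3 or 5 (1), hypoxia TAC 4 (4) or normoxia TAC 2 (5) for TAC in hypoxia, without normoxia sham 2 or normoxia TAC 2 (1) or normoxia TAC 1 (6) for TAC in normoxia, and without hypoxia TAC 2, 3, 4 or 6 or normoxia TAC 4 (2) between oxygen conditions after TAC. Over all genes the fits that left out 1 mouse gave 664 to 2834 calls for TAC in hypoxia and 3151 to 5083 for TAC in normoxia. Between oxygen conditions they gave 775 to 2169 after TAC and 6 to 50 after sham surgery. With no filter, 4 list genes were called for TAC in hypoxia, 5 for TAC in normoxia, and 1 member for hypoxia against normoxia after TAC. Over all genes that fit called 1019 for TAC in hypoxia, 3472 for TAC in normoxia, 1031 for hypoxia against normoxia after TAC and 11 after sham surgery. With the 12 libraries of a contrast, 0 members, 0 list genes and 0 genes in all were called for hypoxia against normoxia after TAC, 1 member (Prdm1), 2 list genes and 1658 genes in all after sham surgery, and 2724 genes for TAC in normoxia. DESeq2 called 4 list genes for TAC in hypoxia (all genes: 2445 for TAC in hypoxia, 96 after sham surgery). Without normoxia TAC 1 and hypoxia TAC 4, 5 list genes were called for TAC in hypoxia, 6 for TAC in normoxia and 1 member after TAC between oxygen conditions. Over all genes that fit called 3115 for TAC in hypoxia and 5193 for TAC in normoxia. Between oxygen conditions it called 2134 after TAC and 45 after sham surgery. The cause of these changes was not tested. Replicate numbers did not pair mice: 5 of 36 same-numbered pairs had a correlation over 0.1 (median 0.011), and 8 were best with their own number. The replicate block called 1 member after TAC between oxygen conditions, where it called 1549 genes in all. After sham surgery it called 13 genes in all. Sums of at most 46 reads per group limit what can be seen for Cd3e, Nkg7, Gzma and Cd2.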
